A study of Homo sapiens with 15 samples.

Results

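This account follows 44 genes of DNA replication and S phase through 5 groups of A549 cells. They were chosen by name, for roles in replication licensing, the replicative helicase, the polymerases, nucleotide supply and entry into S phase, and all 44 were found among the 26475 genes of the deposited count table. All 44 also passed the filter on low counts, which left 12795 genes for testing. They were grouped by role as 11 origin licensing genes, 6 genes of helicase activation and elongation, 6 of the polymerases and primase, 7 of the sliding clamp, its loaders and single-strand binding, 3 of Okazaki fragment processing, 4 of nucleotide supply, 3 of chromatin assembly behind the fork and 4 regulators of the G1 to S transition.

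Replication begins at origins marked by the origin recognition complex, where CDC6 and CDT1 load the MCM2 to MCM7 ring in G1. In S phase CDC45 and the GINS complex join that ring and turn it into the active helicase, after which polymerases, the PCNA clamp and its loaders copy both strands. Many of these genes are transcribed in late G1 and S phase under the E2F transcription factors, so their RNA is commonly high in populations of dividing cells. In bulk RNA, fewer cells in S phase and less RNA per cell cannot be told apart.

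A549 is an epithelial line from a human lung adenocarcinoma. One group was untreated. The other 4 groups all received the cytokine interleukin-4 (IL4), which acts in allergic inflammation, at 10 ng/ml. One of them had IL4 alone, one had IL4 with an agent named only as Compound A, one had IL4 with a pooled control siRNA, and one had IL4 with pooled siRNA against ALOX15 at 1 uM. The labelled time was 48 h, and each group had 3 libraries. ALOX15 encodes arachidonate 15-lipoxygenase, which adds oxygen to polyunsaturated fatty acids. The identity and dose of Compound A and the solvent it was given in are not given in the sources used here, and the labels name no group with Compound A but without IL4. The labels do not say whether replicates were separate cultures, so p-values measure the spread between these libraries, which may be technical.

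Library totals ran from 6407936 to 11031246 counts. ALOX15 counts were 0 to 2 per untreated library, 36 to 44 with IL4, 12 to 22 with Compound A, 22.8 to 27 with control siRNA and 1 to 2.47 with ALOX15 siRNA. ALOX15 was thus near 0 where IL4 was absent or the siRNA was directed at it, and the gene does not check the other labels. Epithelial markers were present throughout (CDH1 at 131 to 165 CPM, counts per 1e6 counts), while the alveolar type II genes SFTPB and SLC34A2 and the leukocyte genes PTPRC and CD3E were at 0 in all 15 libraries. Other members of these lists had counts in all 15 libraries. Among them were the alveolar type II genes ABCA3 (35.8 to 71.7 CPM) and LAMP3 (1.34 to 6.58 CPM), and the leukocyte gene CD14 (0.155 to 1.16 CPM). IL4 replicate 1 stood apart from its group, at 34.4 on the second principal component against 5.35 and -2.61 for its mates. For the 44 genes, IL4 replicate 3 lay lowest, with a median log2 level of -0.59 against the untreated mean. Replicates 1 and 2 were at -0.31 and -0.35. Replicate 3 was the highest of its group for 3 of the 44 (6.82%, against 33% of all tested genes). Untreated replicate 1 was the highest of its group for 35 of the 44 genes (79.5%, against 37.8% of all tested genes). Values without these libraries are given below for IL4 against untreated and for Compound A against IL4. Ribosomal RNA genes took 1.55% to 2.15% of counts in untreated libraries, 0.979% to 1.37% with IL4, 1.35% to 2.52% with Compound A, 0.683% to 1.11% with control siRNA and 1.08% to 1.9% with ALOX15 siRNA, and their part in the results was not tested.

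Promoter sequence was examined because E2F factors bind short words rich in G and C after a run of T, which sit close to the start site in many replication genes. Of the 44 genes, 38 had an entry in the RefSeq promoter table (GRCh38.p14, 250 bases before to 50 after the start). MCM4, MCM5, GINS4, DSCC1, RPA2 and CCNE2 had none. A search of both strands for TTTGGCGC, TTTCCCGC, TTTCGCGC and TTTGCCGC found at least 1 word in 20 of the 38 (52.6%), against 5.4% of the 9630 promoters of all tested genes and 3.3% of all 27305 promoters in the table. Several words, which may overlap, were found in 5 of the 38 (13.2%), against 0.3% of the promoters of tested genes. The median GC content was 66.7% for the 38 and 65.3% for the promoters of tested genes. The word CCAAT, on either strand, was found in 21 of the 38 (55.3%), against 36.8% of the promoters of tested genes. The 6 stretches below are from the genes with an E2F word before the start that had the largest changes with Compound A. They run 5′ to 3′ on the gene's strand, with the word or its reverse complement in capitals.
CDT1 (chr16:88803730-88803785, plus strand): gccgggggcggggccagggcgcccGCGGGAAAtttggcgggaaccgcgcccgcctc
E2F2 (chr1:23531244-23531299, minus strand): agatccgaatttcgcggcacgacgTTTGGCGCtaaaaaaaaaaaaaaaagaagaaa
GINS2 (chr16:85688955-85689009, minus strand): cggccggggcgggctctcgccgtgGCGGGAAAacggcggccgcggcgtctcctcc
MCM6 (chr2:135876498-135876553, minus strand): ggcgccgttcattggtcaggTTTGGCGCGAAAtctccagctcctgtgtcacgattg
POLE (chr12:132687343-132687384, minus strand): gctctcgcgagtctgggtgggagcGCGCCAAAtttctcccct
UHRF1 (chr19:4909463-4909500, plus strand): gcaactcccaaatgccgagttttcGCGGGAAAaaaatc

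The word began 35 bases before the start in CDT1, 42 in E2F2, 31 in GINS2, 18 in POLE and 14 in UHRF1. MCM6 carried TTTGGCGC and the reverse complement of TTTCGCGC overlapping in one run, the nearer of them beginning 86 bases before the start. A match of letters is a description and was not tested for factor binding.

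In untreated cells the genes spanned a wide range of abundance. Per kilobase of the longest coding GENCODE transcript, the mean level was highest for PCNA, the sliding clamp, at 131 CPM per kb. Next came thymidylate synthase TYMS at 40.2, MCM7 at 34.7, and the large and small ribonucleotide reductase subunits RRM1 at 30.2 and RRM2 at 23.1. Within the MCM2 to MCM7 ring, whose subunits are used in equal numbers, the RNA levels ran from 7.7 CPM per kb for MCM5 to 34.7 for MCM7. The lowest were the activator E2F2 at 1.04 and cyclin E2 (CCNE2) at 1.13 CPM per kb, followed by the licensing genes CDT1 and ORC1, both at 2.77.

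IL4 alone was compared with untreated cells first. The replication genes were lower with IL4: 25 of the 44 fell and none rose (edgeR quasi-likelihood test, adjusted p under 0.05), where 11.6% of all tested genes fell and 11.2% rose. No gene was higher at an unadjusted p under 0.05 either, and DESeq2 gave 22 lower and 0 higher. All 44 fitted changes were negative, with a median log2 change of -0.42 against -0.02 for all tested genes, and the range ran from -1.04 to -0.03. The 3 IL4 libraries lay below the 3 untreated ones for 27 of the 44, where 18% of all tested genes did so. Without untreated replicate 1 the count was 18, and without IL4 replicate 1 it was 27. Without IL4 replicate 3 it was 20, with a median log2 change of -0.36. The 6 epithelial markers summed to 6340 to 7160 CPM untreated and 9780 to 12100 CPM with IL4, and the alveolar type II list to 39.1 to 39.8 and 58.5 to 75.2 CPM, nearly all of it ABCA3. The fibroblast list summed to 7.49 to 9.04 CPM untreated and 17.3 to 24.7 CPM with IL4, most of it COL1A1, with COL1A2 at 0 in all 15 libraries. Their part in the result was not tested.

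**Figure D1:**
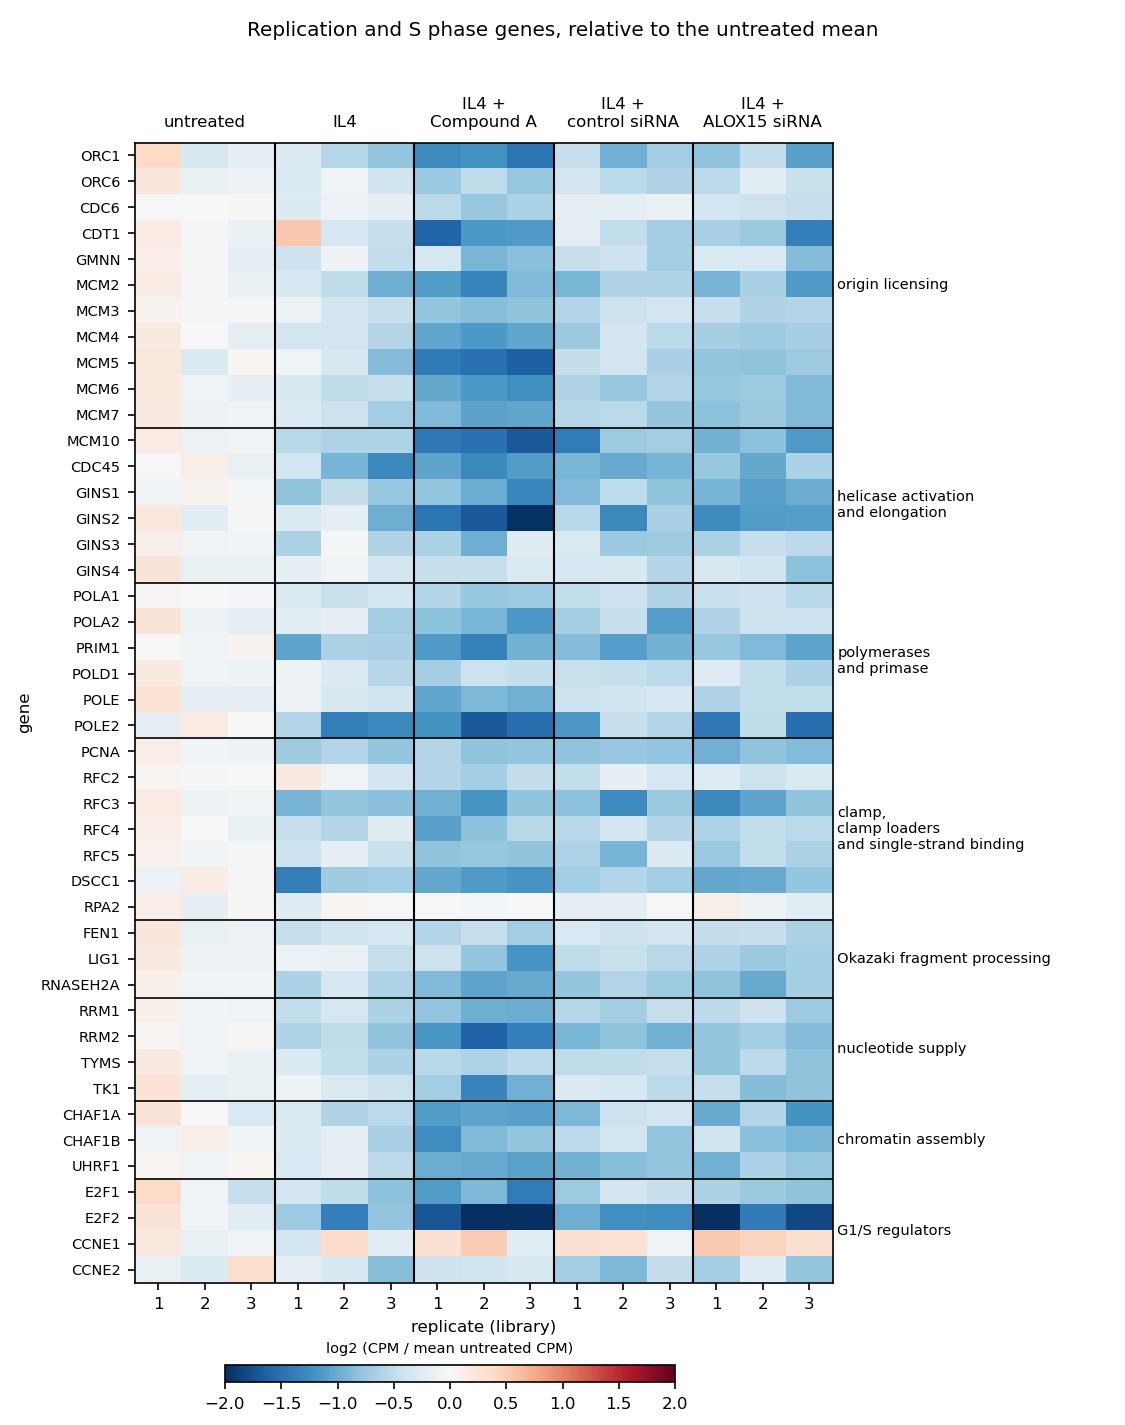
Heat map of the 44 genes (rows, by role) in 15 libraries (columns, by group and replicate); colour gives log2 of CPM over the mean untreated CPM, blue lower and red higher, with values beyond 2 shown at the end colour. Rows pale for IL4 and dark for Compound A, such as CDT1, GINS2 and MCM5, sit beside rows equally dark in both, such as PCNA and RFC3, and the cyclin E1 (CCNE1) row mixes both colours.

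Among the origin licensing genes, 6 of 11 fell with IL4. MCM2, a subunit of the MCM ring, had the largest change of this role: it stood at 33.2, 29.6 and 27.2 CPM in untreated replicates 1 to 3 and at 23.9, 21.1 and 15.3 CPM with IL4. The groups did not overlap, and the log2 change was -0.59 (SE 0.15, adjusted p = 0.00606 by edgeR), a 1.51-fold decrease. MCM3, MCM4, MCM6 and MCM7 fell by 0.31 to 0.46 on the log2 scale, and CDC6, a loader of the ring, fell by 0.19 (SE 0.07, adjusted p = 0.0416 by edgeR). MCM5 gave -0.40 and ORC1, the largest subunit of the origin recognition complex, -0.55, and neither passed (adjusted p = 0.0597 and 0.0543 by edgeR).

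CDT1, the other loader, was at 10.0, 8.7 and 8.21 CPM untreated and at 13.1, 7.07 and 6.52 CPM with IL4. The high value was IL4 replicate 1, the library that stood apart, and the groups overlapped. Its log2 change was -0.03 with a 95% interval of -0.49 to 0.43. Without IL4 replicate 1 it was -0.41 (SE 0.20), still without a call, and both remaining IL4 libraries lay below all untreated ones.

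In helicase activation and elongation, CDC45, MCM10 and GINS1 fell with IL4 and the other 3 genes did not pass. CDC45, the helicase activator, had 12.6, 13.5 and 11.3 CPM untreated and 9.54, 6.55 and 5.09 CPM with IL4. Every IL4 library was below every untreated one, and the log2 change was -0.83 (SE 0.17, adjusted p = 0.00127 by edgeR). MCM10, which helps activate the helicase, went from 16.7, 13.8 and 14.3 CPM to 10.2, 9.69 and 9.78 CPM, a log2 change of -0.60 (SE 0.15). GINS1 gave -0.67, GINS2 -0.44 and GINS4 -0.22, and the differences between these genes were not tested.

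Polymerase subunits and primase were next. POLE2, the small subunit of the leading-strand polymerase epsilon, had the largest fall of the 44 genes: 4.57, 5.72 and 5.07 CPM untreated and 3.41, 1.96 and 2.09 CPM with IL4. It is among the least abundant of them, with 12 to 52 counts per library over all groups, and its log2 change was -1.04 (SE 0.27, adjusted p = 0.00742 by edgeR). PRIM1, the catalytic primase subunit, had 21.9, 20.7 and 23 CPM untreated and 10.5, 14.1 and 14 CPM with IL4, a 1.69-fold decrease (log2 -0.76, SE 0.13). POLA1, the catalytic subunit of polymerase alpha, fell by 0.38. POLE, the catalytic subunit of polymerase epsilon, gave -0.28 and missed the threshold (adjusted p = 0.0565 by edgeR), and POLA2 and POLD1 did not pass.

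Of the sliding clamp, its loaders and single-strand binding, 4 of 7 genes fell with IL4, and 5 of 7 did not overlap. PCNA stood at 196, 172 and 166 CPM untreated and at 109, 118 and 104 CPM with IL4, 178 ± 15.8 against 110 ± 6.84 CPM (SD, n = 3). That was a 1.62-fold decrease, with a log2 change of -0.69 (SE 0.07, adjusted p = 5.65e-07 by edgeR). RFC3, a subunit of the clamp loader, went from 39.6, 32.7 and 33.3 CPM to 18.5, 20.6 and 19.7 CPM, a log2 change of -0.85 (SE 0.13). DSCC1, of the alternative loader used in sister chromatid cohesion, went from 7.88, 9.47 and 8.36 CPM to 3.27, 5.24 and 5.35 CPM, a log2 change of -0.88 (SE 0.17). None of these 3 genes overlapped between the groups. RFC4 fell by 0.43. RFC2 gave -0.08 and RPA2, a subunit of the single-strand binding complex, -0.06, and neither passed.

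Of the Okazaki fragment genes, RNASEH2A, a subunit of the nuclease that removes RNA from DNA, fell by 0.53 (16.3, 14.6 and 14.5 CPM to 9.81, 11.8 and 9.91 CPM) and the flap nuclease FEN1 by 0.41, while DNA ligase LIG1 gave -0.24 and did not pass. In nucleotide supply, RRM2 had 86.9, 80.9 and 86.3 CPM untreated and 55.2, 59.7 and 48.7 CPM with IL4, a log2 change of -0.64 (SE 0.09, adjusted p = 3.31e-05 by edgeR). RRM1 fell by 0.49 and TYMS by 0.47. Thymidine kinase TK1 gave -0.27 and did not pass. TYMS shares 1150 of its 2470 exon bases with genes on the opposite strand, ENOSF1 and TYMSOS, and the strand setting of the counting is not given in the sources used here, so its reads cannot be told apart from theirs.

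In chromatin assembly, CHAF1A, the large subunit of chromatin assembly factor 1, gave 17.6, 14.8 and 11.9 CPM untreated and 12.1, 9.69 and 10.2 CPM with IL4, a log2 change of -0.49 (adjusted p = 0.0373 by edgeR) with overlapping groups. Its call was lost without untreated replicate 1 or 2 (log2 -0.31 and -0.48) and without IL4 replicate 2 or 3 (log2 -0.43 and -0.46). UHRF1, which brings maintenance methylation to new DNA, gave -0.33 (adjusted p = 0.0493 by edgeR), and over 14 alternatives its adjusted p ran from 0.00538 to 0.173. It did not pass without any one of the 3 untreated libraries (log2 -0.28, -0.35 and -0.31) or without IL4 replicate 1 or 3 (log2 -0.34 and -0.25). Neither call held across these settings.

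Of the G1/S regulators, E2F2 went from 6.45, 5.17 and 4.63 CPM to 3.27, 2.09 and 3.13 CPM, a 1.94-fold decrease (log2 -0.95, SE 0.23), and E2F1 fell by 0.59 with overlapping groups. CCNE1, the cyclin that drives entry into S phase with CDK2, had 7.25, 5.72 and 5.97 CPM untreated and 4.91, 8.25 and 5.48 CPM with IL4. Its groups overlapped, with a log2 change of -0.03 and a 95% interval of -0.47 to 0.40. CCNE2 gave -0.40 and did not pass, and it shares 1629 of 4397 exon bases with INTS8 on the opposite strand.

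Some calls depended on single libraries. Of the 25 calls, 18 remained without untreated replicate 1, 20 without IL4 replicate 3 and 21 without untreated replicate 2. Leaving out any other library of these groups kept 23. Without untreated replicate 1, 7 genes no longer passed: CDC6 (log2 -0.18), MCM3 (-0.25), RFC4 (-0.34), FEN1 (-0.25), CHAF1A (-0.31), UHRF1 (-0.28) and E2F1 (-0.32). Without IL4 replicate 1, CDC6 (-0.15) and UHRF1 (-0.34) no longer passed, while ORC1 (-0.70), MCM5 (-0.57), POLD1 (-0.42) and POLE (-0.38) did.

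The libraries with control siRNA are another set of IL4-treated cells, which differ from untreated ones by the siRNA as well and are set against the same 3 untreated libraries. Here 35 of the 44 genes fell and none rose, where 9.36% of all tested genes fell and 9.93% rose. DESeq2 gave 28 lower and 0 higher, and no gene was higher at an unadjusted p under 0.05. The median log2 change was -0.57, and the libraries did not overlap for 41 genes that were lower, against 19.7% of all tested genes. Summed markers also moved without overlap: epithelial from 6340 to 7160 CPM untreated to 9420 to 10200 CPM, alveolar type II from 39.1 to 39.8 to 60.6 to 66.6 CPM, and fibroblast from 7.49 to 9.04 to 14.7 to 16.6 CPM, and their part in the result was not tested. PRIM1 fell by 0.97, CDC45 by 0.95, RFC3 by 0.93, MCM10 by 0.92, RRM2 by 0.89 and PCNA by 0.79. Without untreated replicate 1 the count was 24, and in that setting MCM5 (log2 -0.36), POLE (-0.21), LIG1 (-0.39) and CHAF1A (-0.40) were among the genes that no longer passed. DSCC1 was lost without untreated replicate 2 (log2 -0.55), CHAF1A also without that library (-0.57), and MCM5 without untreated replicate 3 (-0.49). Of the control siRNA libraries, leaving out replicate 1 ended the calls of MCM5 (-0.51), POLE (-0.37) and CHAF1A (-0.43), replicate 2 that of GINS2 (-0.60), and replicate 3 those of MCM5 (-0.42) and LIG1 (-0.47).

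Set directly against IL4 alone, control siRNA changed none of the 44 genes past the threshold, and none of the 12795 tested genes passed in either direction (0%). At an unadjusted p under 0.05, 4 of the 44 were lower and 0 higher, and DESeq2 gave 0. The median log2 change was -0.16 and 38 of the 44 values were negative. Without overlap of the libraries, 4 of the 44 were lower, a larger share than the 4.12% of all tested genes. For higher values the count was 0, against 4.49% of all tested genes. UHRF1 had the largest difference, with 8.39, 8.98 and 9.41 CPM against 13.1, 14.1 and 11.3 CPM with IL4 alone, and the groups did not overlap. Its log2 change was -0.53 with a 95% interval of -0.80 to -0.25, at an adjusted p of 0.898 by edgeR. The median over the 44 genes was -0.10 without IL4 replicate 1 and -0.23 without IL4 replicate 3. Without IL4 replicate 3, 12 of the 44 were lower and 0 higher at an unadjusted p under 0.05 by edgeR.

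Compound A was then compared with IL4 alone. The replication genes stood lower still: 25 of the 44 fell and none rose, where 8.07% of all tested genes fell and 6.35% rose. No gene was higher at an unadjusted p under 0.05, and DESeq2 gave 23 lower and 0 higher. The median log2 change was -0.45 against 0 for all tested genes, 41 of 44 values were negative, and the libraries did not overlap for 25 genes that were lower, against 15.7% of all tested genes. The count fell to 14 without Compound A replicate 2, and was 14 when only the 2 groups compared were fitted. It was 27 without IL4 replicate 3, with a median log2 change of -0.52. Without IL4 replicate 1 it was 20: ORC1 (log2 -0.62), MCM2 (-0.39), POLA1 (-0.27), POLA2 (-0.54), CHAF1A (-0.51) and CHAF1B (-0.56) no longer passed and PRIM1 (-0.51) did. The summed epithelial markers were at 9780 to 12100 CPM with IL4 and 8580 to 9370 CPM with Compound A. The summed fibroblast markers were at 17.3 to 24.7 CPM with IL4 and 8.27 to 11 CPM with Compound A. COL1A1 made up most of that sum while COL1A2 was at 0 in all libraries and DCN in 12 of 15, and their part in the result was not tested.

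**Figure D2:**
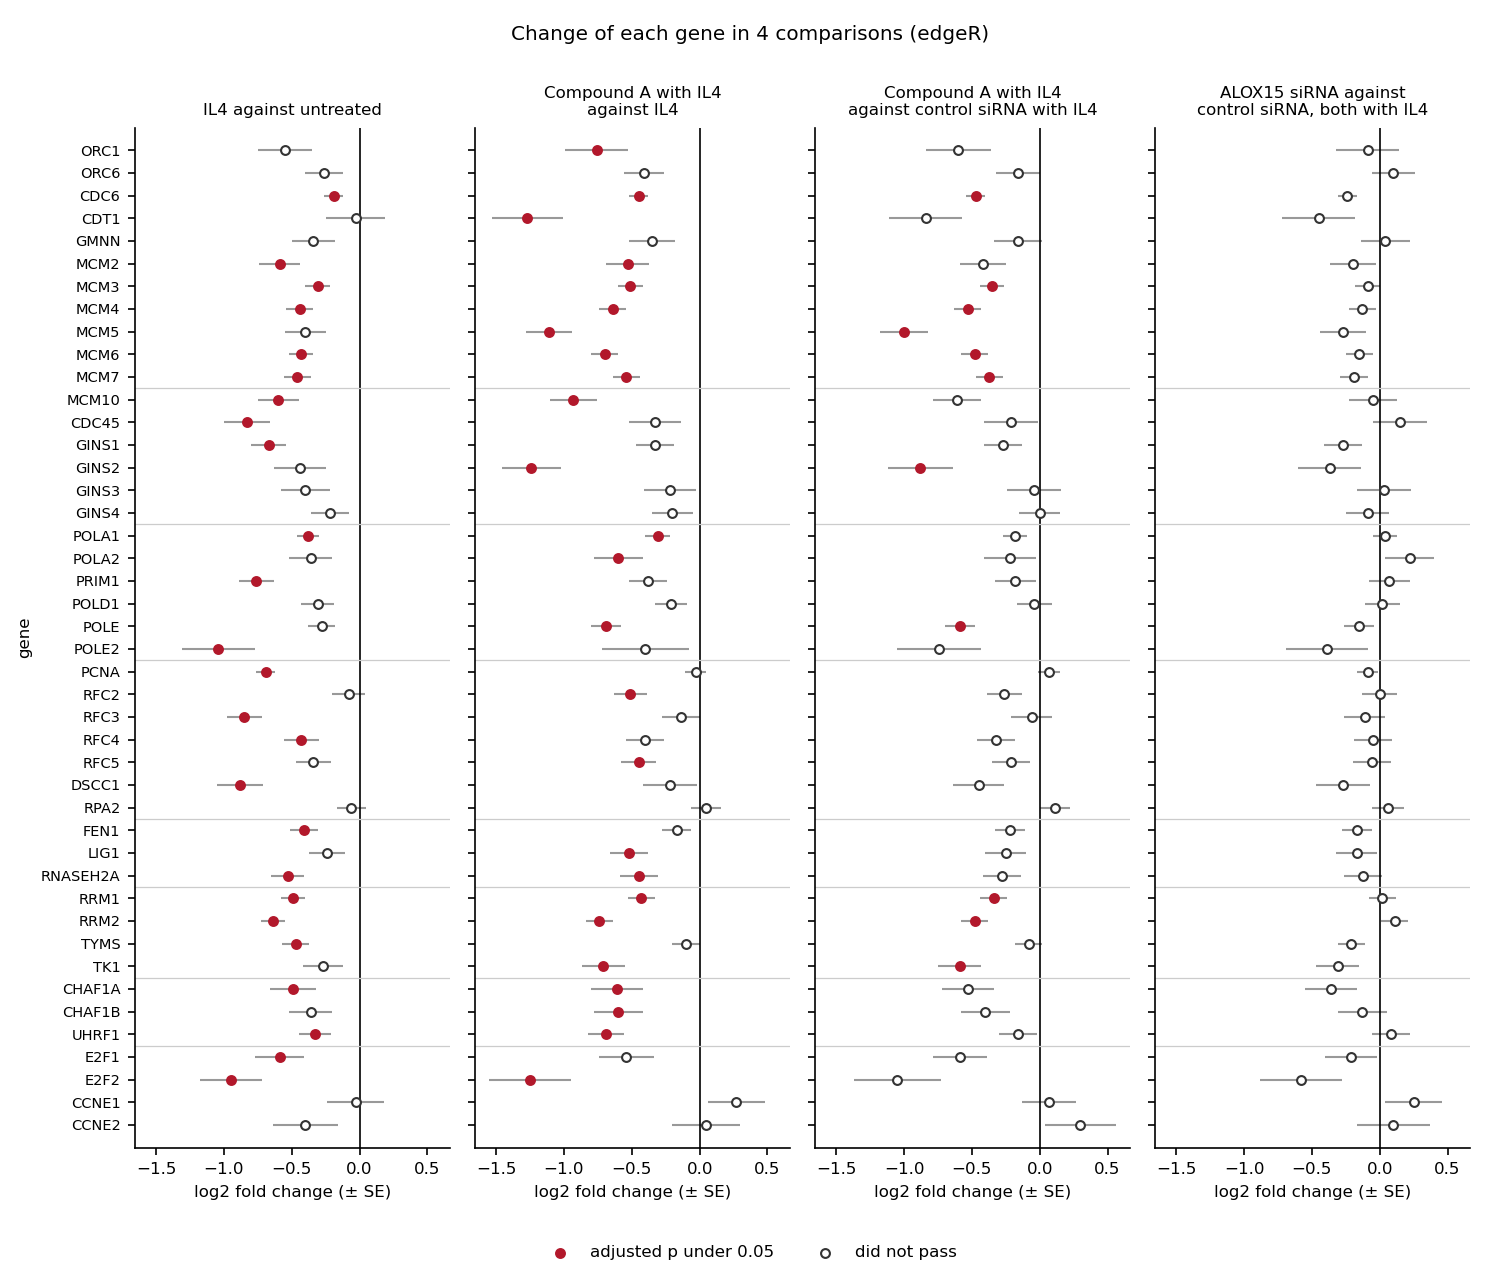
Log2 fold change (x axis, point, with its SE as a bar) of each of the 44 genes (y axis, by role) in 4 comparisons; filled red points passed at adjusted p under 0.05 by edgeR. Compound A has 25 red points against IL4 and 11 against control siRNA, and ALOX15 siRNA has none.

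Origin licensing, the largest role, held the most calls, with 9 of 11 genes lower (81.8%). The share was 100% in chromatin assembly, 75% in nucleotide supply and 25% to 66.7% in the other roles. CDT1 had 2.94, 4.03 and 4.07 CPM with Compound A against 13.1, 7.07 and 6.52 CPM with IL4, a 2.41-fold decrease (log2 -1.27, SE 0.26, adjusted p = 0.00306 by edgeR). Every Compound A library was below every other library of the study except ALOX15 siRNA replicate 3, at 3.49 CPM. MCM5 went from 25.5, 21.9 and 14.9 CPM to 10.2, 9.65 and 8.75 CPM, a 2.16-fold decrease (log2 -1.11, SE 0.17, adjusted p = 0.000347 by edgeR), with no overlap with any other group. Without IL4 replicate 1 the CDT1 change was -0.89 and still passed. All 6 subunits of the MCM ring fell, the other 5 by 0.51 to 0.70, as did ORC1 by 0.76 and CDC6 by 0.45. ORC6 gave -0.41 and the CDT1 inhibitor geminin (GMNN) -0.35, and neither passed. For MCM2, at 13.9, 11.9 and 16.3 CPM against 23.9, 21.1 and 15.3 CPM, the groups overlapped. The MCM2 call was lost without IL4 replicate 1 (log2 -0.39) or 2 (-0.49), and without Compound A replicate 1 (-0.53) or 2 (-0.42).

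In helicase activation, GINS2 and MCM10 fell and CDC45, GINS1, GINS3 and GINS4 did not pass. CDC45 gave -0.33, and -0.06 without IL4 replicate 1. GINS2 had 4.94, 4.24 and 3.47 CPM with Compound A against 11.3, 12 and 6.91 CPM with IL4, a 2.36-fold decrease (log2 -1.24, SE 0.22, adjusted p = 0.0013 by edgeR). MCM10 had 5.52, 5.3 and 4.68 CPM against 10.2, 9.69 and 9.78 CPM, a log2 change of -0.93 (SE 0.17). Neither gene overlapped between the groups. The 3 other GINS genes gave -0.33, -0.22 and -0.20, and GINS2 had the largest fitted change of the 4.

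POLE had 25.6, 28.2 and 27 CPM with Compound A against 48.9, 42.3 and 39.8 CPM with IL4, a 1.62-fold decrease (log2 -0.69, SE 0.11, adjusted p = 0.00052 by edgeR). The groups were well apart, and POLA2 and POLA1 also fell, by 0.60 and 0.31. PRIM1 gave -0.38 (adjusted p = 0.0743 by edgeR) and POLE2 -0.40 with a 95% interval of -1.06 to 0.26, and -0.11 without IL4 replicate 1.

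Of the clamp, its loaders and single-strand binding, 2 of 7 genes fell. PCNA had 118, 102 and 104 CPM with Compound A and 109, 118 and 104 CPM with IL4. The groups coincided, and the log2 change was -0.03 with a 95% interval of -0.19 to 0.13. RFC3 gave -0.14 (95% interval -0.44 to 0.16), DSCC1 -0.22 and RPA2 0.05. RFC2, another loader subunit, had 18.2, 17 and 19.6 CPM against 31.1, 25.8 and 21 CPM, a log2 change of -0.51 (SE 0.12, adjusted p = 0.00944 by edgeR) that was lost without Compound A replicate 2 (log2 -0.46). RFC5 fell by 0.45.

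Among Okazaki fragment genes, LIG1 had 22, 17.1 and 13 CPM with Compound A against 27.1, 27 and 21.4 CPM with IL4 (log2 -0.52, adjusted p = 0.0198 by edgeR), and RNASEH2A had 8.23, 7.32 and 7.55 CPM against 9.81, 11.8 and 9.91 CPM (log2 -0.45, adjusted p = 0.0344 by edgeR). The LIG1 groups overlapped and the RNASEH2A groups did not. Both calls were lost without IL4 replicate 2 (log2 -0.47 for LIG1 and -0.36 for RNASEH2A), without Compound A replicate 2 (-0.51 and -0.41) and without Compound A replicate 3 (-0.37 and -0.44). Nucleotide supply genes fell in 3 of 4 cases. RRM2 had 37.7, 27.6 and 32.9 CPM against 55.2, 59.7 and 48.7 CPM, a 1.67-fold decrease (log2 -0.74, SE 0.10, adjusted p = 0.000116 by edgeR), TK1 fell by 0.71 and RRM1 by 0.43. TYMS gave -0.10 with a 95% interval of -0.31 to 0.11.

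All 3 chromatin assembly genes fell. UHRF1 had 8.11, 8.06 and 7.7 CPM with Compound A against 13.1, 14.1 and 11.3 CPM with IL4, a 1.61-fold decrease (log2 -0.69, SE 0.13, adjusted p = 0.00196 by edgeR) with no overlap. CHAF1B fell by 0.60 and CHAF1A by 0.61. The CHAF1A call (adjusted p = 0.032 by edgeR) was lost without IL4 replicate 1 (log2 -0.51) and without Compound A replicate 1, 2 or 3 (-0.60, -0.64 and -0.61). Of the G1/S regulators, E2F2 had 1.65, 0.954 and 0.905 CPM against 3.27, 2.09 and 3.13 CPM, a 2.38-fold decrease (log2 -1.25, SE 0.30, adjusted p = 0.00942 by edgeR). The groups did not overlap, the lowest library held 6 counts, and the call was lost without Compound A replicate 2 (log2 -1.10). E2F1 gave -0.54 (adjusted p = 0.0675 by edgeR). CCNE1 had 7.76, 9.01 and 5.43 CPM with Compound A, overlapping IL4 alone, with a log2 change of 0.27 (95% interval -0.16 to 0.70), and CCNE2 gave 0.05.

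**Figure D3:**
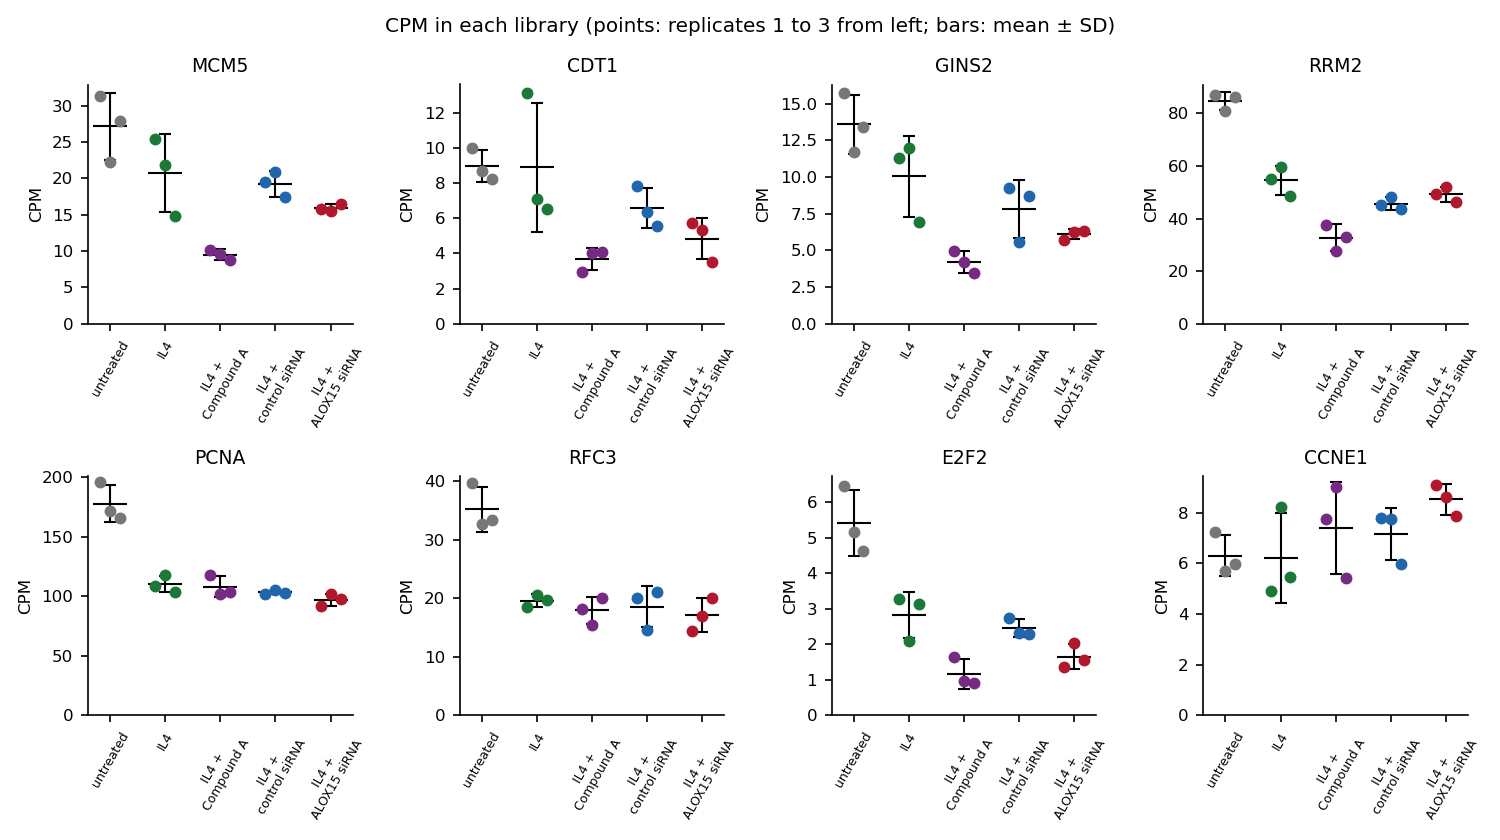
CPM (y axis, from 0) of 8 genes in each library, by group (x axis); points are replicates 1 to 3 from the left and bars are the mean with SD. MCM5, CDT1, GINS2, RRM2 and E2F2 are lowest on average with Compound A, PCNA and RFC3 stand close together in all 4 IL4-treated groups, and CCNE1 overlaps in most groups.

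Control siRNA libraries give Compound A a comparison that uses no library with IL4 alone, though the groups differ by the siRNA too. Against them 11 of the 44 genes fell and none rose, where 3.42% of all tested genes fell and 1.86% rose. DESeq2 also gave 11 lower and 0 higher, and no gene was higher at an unadjusted p under 0.05. A correction for GC content turned the split of all tested genes from 437 lower and 238 higher to 648 lower and 551 higher, and gave 13 of the 44 genes lower and 0 higher. The median log2 change was -0.30. Of the 44 genes, 24 were lower without overlap and 1 was higher, against 15.4% and 15.2% of all tested genes. Summed epithelial markers were at 9420 to 10200 CPM with control siRNA and 8580 to 9370 CPM with Compound A, and summed fibroblast markers at 14.7 to 16.6 and 8.27 to 11 CPM. Their part in the result was not tested.

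The 11 were CDC6, MCM3, MCM4, MCM5, MCM6, MCM7, GINS2, POLE, RRM1, RRM2 and TK1, so 6 of them belong to origin licensing. The 6 are 54.5% of that role, and the 3 nucleotide supply genes are 75% of theirs. MCM5, at 19.5, 20.9 and 17.4 CPM with control siRNA, fell 2.01-fold (SE 0.18 on the log2 scale, adjusted p = 0.00196 by edgeR). POLE, at 39.3, 40.1 and 42.2 CPM, fell 1.5-fold (log2 -0.59, SE 0.11, adjusted p = 0.00454 by edgeR). RRM2, at 45.1, 48.3 and 43.5 CPM, fell by 0.48 and GINS2, at 9.25, 5.57 and 8.7 CPM, by 0.88. CDT1, at 7.81, 6.35 and 5.56 CPM, gave -0.84 without overlap but did not pass (adjusted p = 0.0803 by edgeR), like E2F2 (-1.05, adjusted p = 0.0584 by edgeR) and MCM10 (-0.61, adjusted p = 0.0561 by edgeR). UHRF1 gave -0.16, PCNA 0.07 and RFC3 -0.06.

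This count was sensitive to single libraries. It was 4 without Compound A replicate 2, 5 without Compound A replicate 3, 7 without control siRNA replicate 2 or 3, and 16 without IL4 replicate 1, which enters only through the shared estimate of spread. The GINS2 call was lost without Compound A replicate 2 (log2 -0.88) or 3 (-0.78) and without control siRNA replicate 1 (-0.75) or 3 (-0.80), and the RRM2 call without Compound A replicate 2 (-0.36) or control siRNA replicate 2 (-0.44). The MCM6 call (log2 -0.48) was lost without Compound A replicate 2 (-0.47) or 3 (-0.44).

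ALOX15 siRNA was compared with control siRNA, both with IL4. None of the 44 genes passed in either direction, where 0.383% of all tested genes fell and 0.313% rose. At an unadjusted p under 0.05, 2 were lower and 0 higher, and DESeq2 gave 0. The median log2 change was -0.10, with 29 of 44 values negative. Without overlap of the libraries, 9 of the 44 were lower, a larger share than the 9.18% of all tested genes. Only 1 of the 44 was higher without overlap, a smaller share than the 9.47% of all tested genes. CDC6 came nearest, at 68.4, 66.7 and 65.3 CPM against 77.9, 78 and 81.3 CPM. Its groups did not overlap, and the log2 change was -0.24 (SE 0.07, adjusted p = 0.139 by edgeR). MCM5 had 15.8, 15.5 and 16.5 CPM against 19.5, 20.9 and 17.4 CPM, a log2 change of -0.27 with a 95% interval of -0.62 to 0.08. PCNA gave -0.09 (95% interval -0.25 to 0.08) and RRM2 0.11 (95% interval -0.10 to 0.32). The count was 1 gene lower without IL4 replicate 1, with the GC correction and in the fit of the compared groups alone.

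The effect of Compound A against IL4 alone and that of ALOX15 siRNA against control siRNA use no common library, so their difference was tested directly. Compound A lowered 6 of the 44 genes more than the siRNA did and none less, where the difference was lower in 3.2% and higher in 1.94% of all tested genes. With the GC correction the split of all tested genes went from 410 lower and 248 higher to 649 lower and 608 higher, with 11 of the 44 lower and 0 higher. DESeq2 gave 4 lower and 0 higher. The 6 genes were MCM10, RRM2, MCM5, UHRF1, MCM6 and MCM4, with differences in log2 change of -0.87, -0.85, -0.84, -0.77, -0.55 and -0.51. For UHRF1, MCM10, RRM2 and MCM6 the controls themselves stood apart. Control siRNA gave -0.53, -0.32, -0.26 and -0.22 against IL4 alone without overlap (adjusted p = 0.898 by edgeR for each). MCM5 and MCM4 gave -0.11 each, with overlap. Compound A gave only -0.16 against control siRNA for UHRF1 (adjusted p = 0.567 by edgeR). MCM10 gave -0.61 there and did not pass (adjusted p = 0.0561 by edgeR). RRM2 and MCM6 gave -0.48 each and passed. The median difference over the 44 genes was -0.37 against 0 for all tested genes.

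RRM2 gave the firmest of these differences (SE 0.14, adjusted p = 0.00119 by edgeR), and its adjusted p stayed at 0.00625 or below in all 20 alternatives. The adjusted p of UHRF1 ran from 0.0106 to 0.0681 over its 20 alternatives, that of MCM10 from 0.0166 to 0.114, that of MCM5 from 0.00277 to 0.116, that of MCM6 from 0.0102 to 0.0832 and that of MCM4 from 0.0147 to 0.133. Single libraries ended these calls: without Compound A replicate 2 the differences were -0.78 (UHRF1), -0.89 (MCM10), -0.85 (MCM5), -0.54 (MCM6) and -0.47 (MCM4), and none of these passed. The same 5 calls were lost without Compound A replicate 3 (-0.75, -0.82, -0.79, -0.51 and -0.52) and without ALOX15 siRNA replicate 2 (-0.69, -0.80, -0.86, -0.52 and -0.52). Without control siRNA replicate 1 they gave -0.72, -0.67, -0.85, -0.57 and -0.42, again with none passing. Without IL4 replicate 2, UHRF1 (-0.69), MCM10 (-0.89), MCM5 (-0.80) and MCM4 (-0.47) were lost, and without ALOX15 siRNA replicate 3 the same genes at -0.76, -0.95, -0.81 and -0.50. Without ALOX15 siRNA replicate 1, MCM10 (-0.86), MCM5 (-0.85), MCM6 (-0.53) and MCM4 (-0.50) were lost. Without Compound A replicate 1 these were MCM10 (-0.92), MCM5 (-0.89) and MCM4 (-0.53). Control siRNA replicate 2 ended MCM5 (-0.90) and MCM6 (-0.50), control siRNA replicate 3 ended MCM5 (-0.77) and MCM4 (-0.51), and IL4 replicate 1 ended MCM5 (-0.67). RRM2 kept its call without any one of the 12 libraries. The count of 6 dropped to 1 when any of Compound A replicates 2 and 3, control siRNA replicate 1 and ALOX15 siRNA replicate 2 was left out, 2 without IL4 replicate 2 or ALOX15 siRNA replicate 1, 3 without ALOX15 siRNA replicate 3, and 13 without IL4 replicate 3.

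A further comparison, added after the values were seen, asked whether a gene fell more in the step from untreated to IL4 or in the step to Compound A. It set the change from control siRNA to Compound A against the change from untreated to IL4, so that no library entered both steps. The Compound A step was less negative for 4 of the 44 genes (9.09%) and more negative for none, where the same difference was higher in 8.25% and lower in 10% of all tested genes, a share near that background. Without untreated replicate 1 the count was 2 less negative and 2 more negative (MCM5 at -0.76 and POLE at -0.49), and the median over the 44 genes went from 0.13 to 0.03. PCNA differed by 0.76 (SE 0.11, adjusted p = 2.97e-05 by edgeR) and RFC3 by 0.79 (SE 0.20, adjusted p = 0.00837 by edgeR), and both passed in all 20 alternatives. PRIM1 (0.58, adjusted p = 0.0445 by edgeR) and TYMS (0.40, adjusted p = 0.0498 by edgeR) passed in 5 of 20 alternatives each. The PRIM1 call was lost without any one library except IL4 replicate 2, IL4 replicate 3 and Compound A replicate 2 (values 0.45 to 0.64), and the TYMS call without any one except untreated replicate 3 and IL4 replicate 1 (0.28 to 0.41). CDT1 (-0.81, 95% interval -1.54 to -0.08) and MCM5 (-0.61, 95% interval -1.09 to -0.12) lay on the other side and did not pass (adjusted p = 0.117 and 0.0738 by edgeR). At an unadjusted p under 0.05, 3 genes were lower and 6 higher, and DESeq2 gave 0 lower and 2 higher. Since PCNA and RFC3 were seen before this comparison was set up, it describes their pattern and does not test it anew. The PCNA means of the IL4-treated groups ran from 97.2 ± 5.26 to 110 ± 6.84 CPM (SD, n = 3).

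Other lists of cell cycle genes were counted in the same fits. Of 38 other replication fork and origin genes, 19 fell and 1 rose with IL4 (median log2 change -0.26), and 7 fell and none rose with Compound A against IL4 (median -0.14). These are 50% and 18.4% of the list lower, where 11.6% and 8.07% of all tested genes were. With IL4 the largest were the PCNA unloading factor ATAD5 (-1.04), the exonuclease EXO1 (-0.96), the origin firing factor MTBP (-0.71) and the checkpoint mediator CLSPN (-0.68). With Compound A they were the histone chaperone ASF1B (-1.10), the helicases RECQL4 (-0.95) and DNA2 (-0.78), and the origin firing factor TICRR (-0.61).

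Of 14 other nucleotide supply genes, 2 fell and 1 rose with IL4, and 4 fell and 2 rose with Compound A. The shares with IL4, 14.3% lower and 7.14% higher, lie near those of all tested genes (11.6% and 11.2%), and with Compound A they were 28.6% and 14.3% (8.07% and 6.35% of all tested genes). CTP synthase CTPS1 rose at both steps, from 205 to 326 and 409 CPM on average (log2 0.67 and 0.32), against the direction of the replication genes. RRM2B, the p53-induced counterpart of RRM2, rose with Compound A (log2 0.60, adjusted p = 0.006 by edgeR), and DTYMK (-0.47) and DUT (-0.42) fell.

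Of 23 tested genes of G1 and G1/S control, 5 fell and 1 rose with IL4 and 2 fell and 4 rose with Compound A. With IL4 these are 21.7% lower and 4.35% higher. With Compound A they are 8.7% lower, near the 8.07% of all tested genes, and 17.4% higher, against 6.35%. CCND2, CDKN1C, CDKN2A, CDKN2B and CDKN2D of that list were too low to test. The CDK inhibitor CDKN1A (p21) rose with IL4 from 309 to 448 CPM (log2 0.53, SE 0.06, adjusted p = 6.37e-07 by edgeR) and did not pass with Compound A (log2 0.15). CDKN1B (-0.44) and E2F7 (-0.40) fell with IL4, and cyclin A2 (CCNA2) fell at both steps (-0.70 and -0.48). With Compound A, CDKN2C fell (-0.80), and FBXW7 (0.58), which marks cyclin E for destruction, and E2F5 (0.52) rose.

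The lower RNA levels were not limited to S phase genes. Of 20 genes of G2 and mitosis, 18 fell and none rose with IL4 (median log2 change -0.62), and 14 fell and none rose with Compound A (median -0.43). Both shares, 90% and 70%, can be read beside 56.8% for the 44 replication genes in each comparison, and no test compared the lists.

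**Figure D4:**
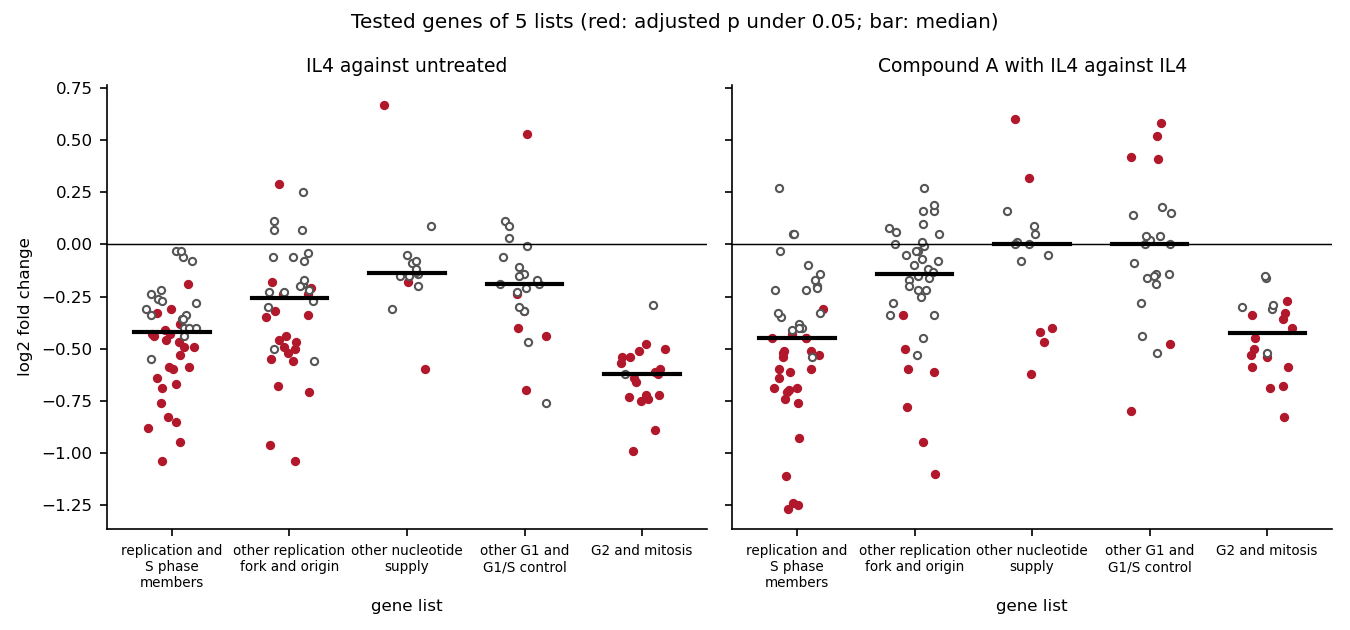
Log2 fold change (y axis) of every tested gene in 5 gene lists (x axis), with IL4 against untreated on the left and Compound A against IL4 on the right; red points passed at adjusted p under 0.05 by edgeR and bars are list medians. The replication genes (medians -0.42 and -0.45) and the G2 and mitosis genes (-0.62 and -0.43) lie mostly below 0, while the other nucleotide and G1 lists have medians of 0 with Compound A.

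The promoter words were last set beside the changes. Among the 38 genes with a promoter entry, the 20 with an E2F word had a median log2 change of -0.44 with IL4 and the 18 without one had -0.42, and 14 of 20 and 9 of 18 fell. With Compound A against IL4 the medians were -0.52 and -0.44, and 13 of 20 and 10 of 18 fell. Against control siRNA they were -0.36 and -0.27, and 6 of 20 and 3 of 18 fell. With control siRNA against untreated they were -0.64 and -0.56, and with ALOX15 siRNA against control siRNA -0.18 and -0.02. The order was reversed with control siRNA against IL4, at -0.15 and -0.17. It was also reversed for the difference between Compound A and ALOX15 siRNA, at -0.34 and -0.43. For the comparison of the steps each median was 0.12. These are descriptions without a test. TTTCCCGC or its reverse complement began within 60 bases before the start in CDT1, GINS2, GINS3, UHRF1, PCNA, RFC3 and TYMS. Of these, CDT1, GINS2 and UHRF1 fell with Compound A against IL4, and GINS2 alone fell against control siRNA. In the G2 and mitosis list, 13.3% of 15 promoters held an E2F word and 86.7% held CCAAT.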

How the data were processed

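RNA of 15 A549 libraries was sequenced, 3 in each of 5 groups. The authors deposited RSEM expected counts per gene (RSEM 1.2.15, Bowtie2 2.1.0, hg38), per the submitters' processing notes. The annotation, read filters and strand setting are not given in the sources used here. Expected counts were rounded to whole numbers (3.63% to 4.19% of values per library were not whole, within 1e-06, and none of the 44 genes' values). Because multi-mapped reads are shared out by RSEM, values of genes with close copies are estimates.

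Genes were filtered with filterByExpr, scaled by TMM and fitted over all 15 libraries with edgeR 4.0.16 (robust quasi-likelihood test, two-sided, R 4.3.3). P-values were adjusted by Benjamini-Hochberg over 12795 genes, with a threshold of 0.05. CPM is counts per 1e6 of the TMM-scaled total. SE is the log2 change over the root of its F statistic. Alternatives were DESeq2 1.42.0, other scalings and filters, a GC correction, a replicate block, a threshold of 1.5-fold, fits of the compared groups alone and leaving out each library. Values in every library are given for the gene of each role with the largest change with IL4 and with Compound A against IL4, and for up to 4 genes that passed in the difference of effects. PCNA, RFC3, PRIM1, CDC6 and CCNE1 were added after their values were seen. Up to 4 genes are named from each other list. The members, lists and rules were chosen with earlier results of these data known. Library totals, 6407936 to 11031246 counts, limit the precision for the rarest genes.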

Additional observations from a re-analysis of the deposited data

How the results depend on the processing

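For results of named genes that passed in the main fit, 1009 values under alternatives were computed: 872 kept their side of the threshold, 137 lost the call and 0 changed direction. Results that did not pass were left out, so a gained call could not be counted. Requiring a change of at least 1.5-fold left 12 genes lower with IL4 against untreated, 15 with Compound A against IL4, 4 with Compound A against control siRNA, 17 with control siRNA against untreated and 4 for the difference between Compound A and ALOX15 siRNA, and 2 genes higher in the comparison of the steps. Fitting the compared groups alone gave 14 for Compound A against IL4, 1 for ALOX15 siRNA, 17 for Compound A against control siRNA and 2 higher for the steps. The GC correction gave 1 for ALOX15 siRNA, 11 for the difference between Compound A and ALOX15 siRNA, and 1 lower for the steps. For the steps, DESeq2 and no filter gave 2 higher, and the RLE and upper quartile scalings 2 higher and 1 lower. The cause of these shifts was not tested.

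Leaving out 1 library at a time gave 18 to 27 genes lower with IL4, 14 to 27 with Compound A against IL4, 4 to 16 with Compound A against control siRNA, 24 to 39 with control siRNA against untreated, 0 to 1 with ALOX15 siRNA, 0 to 0 with control siRNA against IL4 and 1 to 13 for the difference between Compound A and ALOX15 siRNA. The steps gave 0 to 2 lower and 2 to 4 higher, and the counts of higher genes were 0 to 0 in the others.

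The numbers were not taken to pair the libraries, since not every same-number pair correlated over 0.1. Paired libraries could also fail so strict a rule, so it does not show that pairing was absent. The correlations of 30 same-number pairs ran from -0.13 to 0.29 (median 0.02), 6 of them over 0.1, and those of 60 other pairs from -0.24 to 0.23 (median -0.01), also 6 over 0.1. Untreated and IL4 replicate 1 gave the highest, and 7 of 15 libraries correlated best with their own number. With a replicate block the counts lower were 30 with IL4, 27 with Compound A against IL4, 14 with Compound A against control siRNA, 37 with control siRNA against untreated, 0 with ALOX15 siRNA, 0 with control siRNA against IL4 and 9 for the difference, and the steps gave 4 higher and 1 lower. Depth limits E2F2 and POLE2, whose lowest libraries held 6 and 12 counts.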
